A study of Mus musculus with 9 samples.

Results

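The genes described here are the 10 immediate early transcription factor genes of the Fos family (Fos, Fosb, Fosl1, Fosl2), the Jun family (Jun, Junb, Jund) and the Egr family (Egr1, Egr2, Egr3). They were taken by symbol, and each was measured by 1 probe set annotated to that symbol alone, so all 10 entered the tests, among 19938 genes in all. The cells were BaF3, a mouse haematopoietic line that depends on interleukin-3, infected with a retrovirus carrying BCR-ABL (the P210 form, per the design text), BCR-RET or FGFR1OP-RET and sorted by EGFP fluorescence. Each fusion had 3 arrays of Affymetrix MouseGene 1.0 ST, numbered 1, 2 and 3 in their titles. Uninfected cells were not analysed here, and the labels do not give the clone, the passage or the interleukin-3 content of the medium. They do not say what a replicate number stands for or whether the arrays of a group are separate cultures, so the p-values below rest on a spread between arrays that may be only technical.

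Immediate early genes are transcribed within minutes of a growth factor or cytokine signal, without new protein synthesis, and their messages are short-lived. Kinases of the ERK and JNK pathways act on factors already bound to their promoters, among them SRF with its ternary complex partners, CREB and Jun itself. Fos and Jun proteins pair to form the transcription factor AP-1, while the Egr proteins are zinc-finger factors that bind GC-rich sites. Egr1 and Egr2 are also known for roles in monocyte and macrophage development.

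None of the 10 genes passed the threshold (Benjamini-Hochberg adjusted p under 0.05 over all genes, limma) in any comparison of the fusions, where 0.587% of all genes passed for BCR-RET against BCR-ABL, 1.02% for FGFR1OP-RET against BCR-ABL and 1.33% for BCR-RET against FGFR1OP-RET. At an unadjusted p under 0.05 the counts were 1, 1 and 3 of 10 in the same order, against 11.4%, 9.75% and 14.9% of all genes. For BCR-RET against BCR-ABL, blocking on the number raised the count of genes from 117 to 362, with 0 of the 10 among them. For BCR-RET against FGFR1OP-RET the same block raised the count of genes from 265 to 1135 of 19938. It called 3 of the 10 there, all lower in BCR-RET cells. They were Fosl2 (adjusted p = 0.00620, limma), Jund (0.0166) and Fosl1 (just under the threshold). Over genes, deviations of same-numbered arrays from their fusion means correlated there at 0.498, -0.152 and 0.410 for numbers 1, 2 and 3. Not all of those arrays were thus shown to be pairs. The comparisons of numbers rest on the same model of number and fusion. Differences appeared between replicate numbers. Jun, Fosb, Fosl2 and Fos were lower on the arrays numbered 3 than on those numbered 1 in each of the 3 fusions. Their fitted differences over the fusions were -0.56 to -0.41 on the log2 scale, and all 4 passed the threshold, while single fusions ran from -0.14 (Fos, BCR-ABL) to -0.77 (Fos, BCR-RET). In that comparison 9.85% of all genes passed in either direction and 3.18% were lower.

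Fos, the founding member of its family, gave log2 values of 8.04, 7.81 and 7.89 on BCR-ABL arrays 1, 2 and 3. On the BCR-RET arrays it gave 8.56, 8.04 and 7.79, and on the FGFR1OP-RET arrays 8.48, 8.02 and 8.04. Array 1 was the highest of each fusion, and the ranges of the fusions overlapped. The 9-array mean of Fos, 8.073, was below the median level of all genes, 8.193, as were those of Egr1 and Egr2. These genes were therefore not in the tests limited to genes above that level. The means were 7.91 ± 0.11, 8.13 ± 0.39 and 8.18 ± 0.26 (SD, n = 3, in the order BCR-ABL, BCR-RET, FGFR1OP-RET), and the differences of BCR-RET and FGFR1OP-RET from BCR-ABL were 0.21 (SE 0.19, adjusted p = 0.672, limma) and 0.26 (SE 0.19, adjusted p = 0.705, limma).

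Fosb, a Fos family member that is also strongly induced by stimulation, gave 9.02, 8.47 and 8.35 in BCR-ABL cells. It gave 9.12, 8.43 and 8.37 with BCR-RET and 8.84, 8.66 and 8.57 with FGFR1OP-RET. Array 1 again stood highest in each fusion, and the 3 means, 8.61, 8.64 and 8.69, lay within 0.08 of each other, against SDs of 0.36, 0.42 and 0.14.

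Fosl2, which encodes the Fos-related protein Fra-2, gave 10.73, 10.43 and 10.48 in BCR-ABL cells. It gave 10.58, 10.25 and 10.08 with BCR-RET and 11.03, 10.61 and 10.54 with FGFR1OP-RET. Its mean was lowest in BCR-RET cells (10.30 ± 0.26) and highest in FGFR1OP-RET cells (10.73 ± 0.27), but BCR-RET array 1 overlapped with FGFR1OP-RET array 3. Between the RET fusions the difference, BCR-RET minus FGFR1OP-RET, was -0.43 (SE 0.16, 95% confidence interval -0.78 to -0.08, adjusted p = 0.252, limma). Arrays of the same number differed by -0.46, -0.37 and -0.46 for numbers 1, 2 and 3.

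Fosl1, which encodes Fra-1, was the Fos gene least tied to the replicate number. It gave 9.71, 9.51 and 9.58 in BCR-ABL cells, 9.72, 9.56 and 9.57 with BCR-RET and 9.85, 9.79 and 9.94 with FGFR1OP-RET. All 3 FGFR1OP-RET arrays lay above all arrays of the other fusions. The difference was 0.26 from BCR-ABL (SE 0.07, 95% confidence interval 0.10 to 0.41, adjusted p = 0.205, limma). BCR-RET minus FGFR1OP-RET was -0.24 (SE 0.07, adjusted p = 0.172, limma).

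Jun, which encodes the AP-1 subunit c-Jun, gave 10.13, 9.81 and 9.71 in BCR-ABL cells. It gave 10.17, 9.74 and 9.62 with BCR-RET and 10.33, 10.01 and 9.75 with FGFR1OP-RET. In every fusion array 1 was highest and array 3 lowest, and the ranges of the fusions overlapped. Arrays 1 of all fusions, at 10.13 to 10.33, lay above every other array.

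Junb, which encodes a Jun protein known to counter c-Jun at some promoters, ranged from 9.51 to 9.65 in BCR-ABL cells, from 9.62 to 9.78 with BCR-RET and from 9.44 to 9.93 with FGFR1OP-RET. The FGFR1OP-RET range spanned the values of both other fusions, and array 1 was highest in each. Jund, the Jun gene that is usually expressed without stimulation, gave 11.68, 11.47 and 11.39 in BCR-ABL cells, 11.30, 11.39 and 11.20 with BCR-RET and 11.72, 11.73 and 11.47 with FGFR1OP-RET. All BCR-RET values were below those of both other fusions, the nearest BCR-RET and BCR-ABL arrays reading 11.387 and 11.390. The difference was -0.22 from BCR-ABL (SE 0.10, adjusted p = 0.434, limma) and -0.34 from FGFR1OP-RET (SE 0.10, 95% confidence interval -0.56 to -0.13, adjusted p = 0.147, limma).

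Over the 9 arrays the Egr genes had the lowest SDs of the 10 (0.04, 0.10 and 0.10 for Egr1, Egr2 and Egr3). Egr1 had the same value, 7.80276, on 7 of the 9 arrays, and the other values were 7.88 on BCR-RET array 1 and 7.73 on FGFR1OP-RET array 1. A value repeated on at least 7 arrays was found for 92 genes, 0.461% of all, and the repeat leaves this probe set little room to show a difference in either comparison. Egr2, which acts with Egr1 in myeloid cells, had 8.20326 on 4 arrays and ranged from 8.01 to 8.33 over all 9. A value shared by at least 3 arrays was found for these 2 of the 10 genes and for 30.1% of all genes. Egr3, a close relative of both, ranged from 8.66 to 8.96. Differences of the Egr genes between fusions lay between -0.12 and 0.13, with adjusted p of 0.464 or more (limma).

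**Figure D1:**
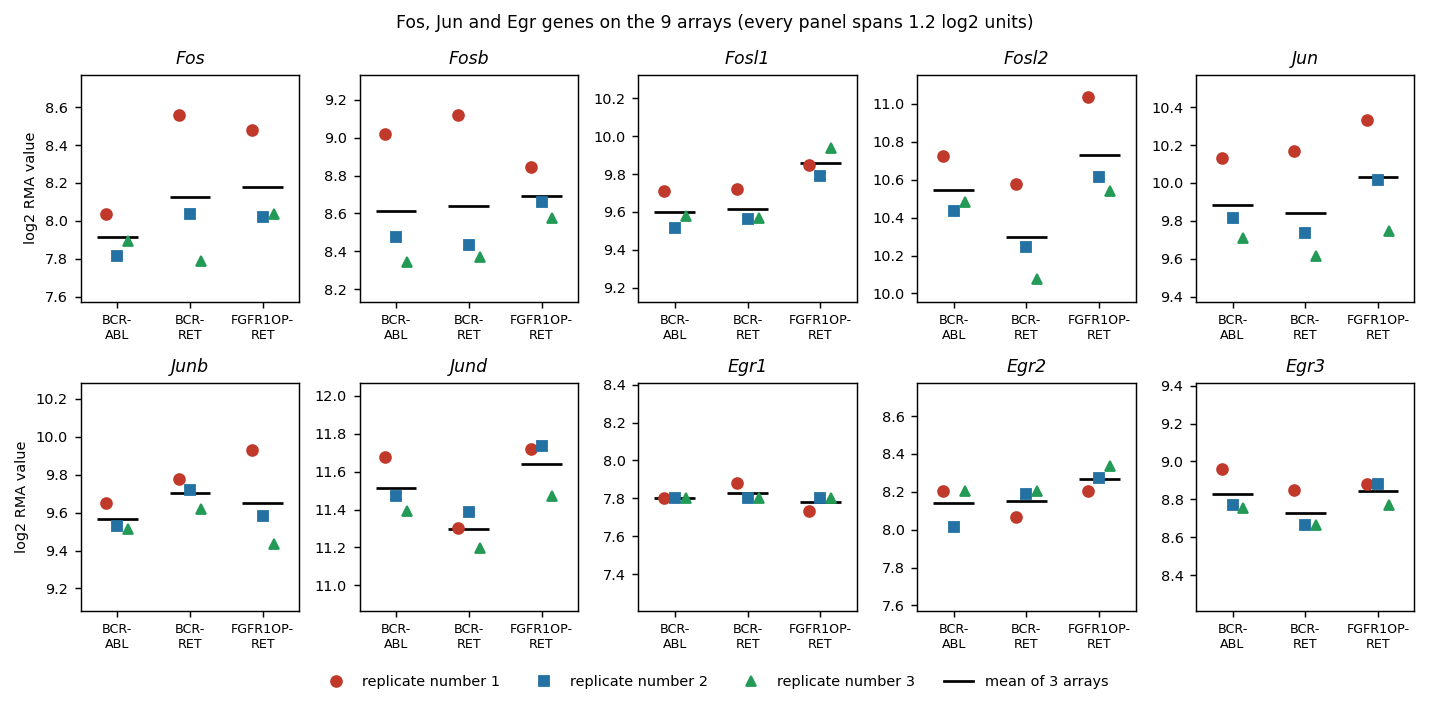
The log2 RMA value of each gene (vertical axes, each spanning 1.2 log2 units at its own level) on the 9 arrays, by fusion (horizontal axis); points are arrays, with colour and shape for the replicate number, and bars are means of 3 arrays. Number 1 is highest in every fusion for Fos, Fosb, Fosl2, Jun and Junb, while Fosl1 is highest in FGFR1OP-RET cells and Egr1 is nearly flat.

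For 6 of the 10 genes the replicate number took a larger part of the variation than the fusion. Number 1 was the highest array in all 3 fusions for 5 of the 10 genes (Fos, Fosb, Fosl2, Jun and Junb), against 8.38% of all genes, and for none was it the lowest in all 3, against 12.5%. Number 3 was the lowest in all 3 fusions for 4 of the 10, against 6.53% of all genes. Splitting each gene's sum of squares over the 9 arrays, number accounted for 85.5% in Jun, 84.5% in Fosb, 62.6% in Fos, 59.0% in Junb and 49.6% in Fosl2, against a median of 25.0% over all genes. The fusion accounted for 11.9%, 1.49%, 19.9%, 16.6% and 46.2% in the same order, with a median of 31.2% over all genes. The fusion share was largest in Fosl1 (72.1%) and Jund (62.9%), and in Egr1 the number accounted for 0.178%.

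**Figure D2:**
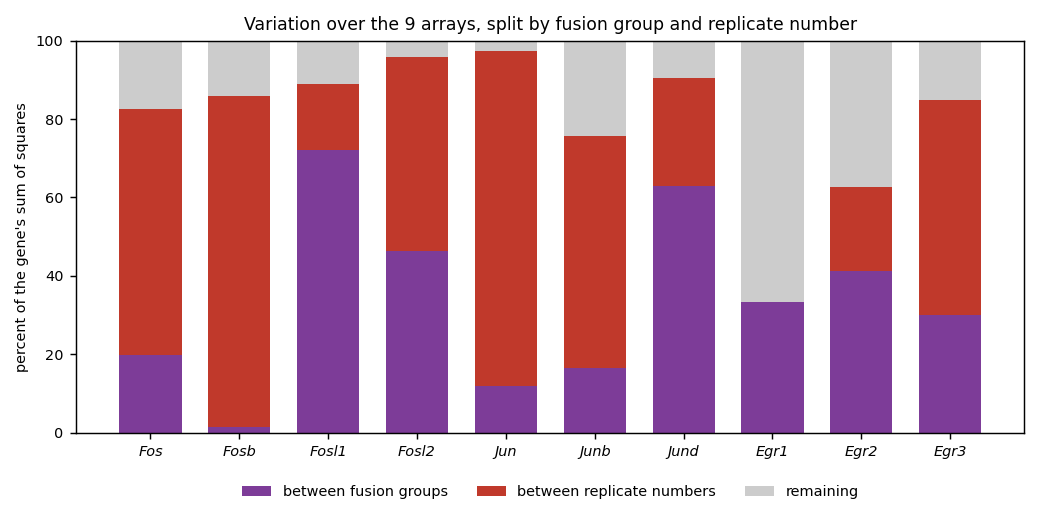
Percent of each gene's sum of squares over the 9 arrays (vertical axis) that lies between fusion groups, between replicate numbers and in neither, for the 10 genes (horizontal axis). Number takes the largest share in Fos, Fosb, Fosl2, Jun, Junb and Egr3, and fusion in Fosl1, Jund and Egr2; in Egr1 most is in neither.

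The numbers were then compared in 1 model with the fusion as a covariate, so that each difference is between numbers within fusions. This model takes a number as shared by all 3 fusions, which the labels do not say. Over genes, deviations of FGFR1OP-RET array 2 correlated at -0.128 and -0.152 with those of number 2 of BCR-ABL and BCR-RET. With their number 1 arrays the correlations were 0.213 and 0.209. Number 2 was thus not shown to be shared by the 3 fusions, and the comparisons with number 2 rest on that. Jun differed by -0.43, -0.56 and -0.58 between number 3 and number 1 in BCR-ABL, BCR-RET and FGFR1OP-RET cells, and its fitted difference was -0.52 (1.43-fold lower, SE 0.06, adjusted p = 0.00191, limma). Fosb differed by -0.67, -0.75 and -0.27, with a fitted difference of -0.56 (1.48-fold lower, SE 0.09, adjusted p = 0.00865, limma). Fosl2 differed by -0.24, -0.50 and -0.50 (fitted -0.41, SE 0.06, adjusted p = 0.00655, limma), and Fos by -0.14, -0.77 and -0.44 (fitted -0.45, SE 0.10, adjusted p = 0.0216, limma). All 4 were lower in 3 of 3 fusions. The drop of Fos was small in BCR-ABL cells and that of Fosb in FGFR1OP-RET cells; differences between fusions in these drops were not tested.

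Junb and Jund read lower on number 3 in all 3 fusions, with fitted differences of -0.26 and -0.22, and did not pass (adjusted p = 0.0538 and 0.0685, limma). Both passed when only genes above the median level were tested (0.0238 and 0.0339), where 2668 genes passed. Junb also passed with a trended and robust spread (0.0485, with 2052 genes). It passed too without genes of repeated values (0.0387, with 2195 genes), an alternative chosen after seeing the data. In the main test 1964 genes passed. Leaving out each array, both missed the threshold every time (adjusted p 0.0517 to 0.244 for Junb and 0.0583 to 0.281 for Jund, limma). Egr3 had a difference of -0.17 (adjusted p = 0.0978, limma), and Fosl1, Egr1 and Egr2 had differences of -0.06, -0.0032 and 0.09. The median over the 10 genes was -0.24, against -0.01 over all genes. The same direction in all 3 fusions was found for 7 of the 10, all lower, where 20.1% of all genes were lower in all 3.

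For Jun, Fosl2, Fosb and Fos, number 2 was nearer to number 3 than to number 1. Against number 1, Jun (-0.36, SE 0.06, adjusted p = 0.0309, limma) and Fosl2 (-0.35, SE 0.06, adjusted p = 0.0458, limma) passed, where 0.787% of all genes did and 0.461% were lower. Fosb (-0.47, adjusted p = 0.0618, limma) and Fos (-0.40, adjusted p = 0.104, limma) did not pass. Fosb did pass among genes above the median level (adjusted p = 0.0196, limma), a test that Fos, below that level, did not enter. Fosb also passed with a trended and robust spread (0.0481), without genes of repeated values (0.0317) and without FGFR1OP-RET array 1 (0.0132) or 2 (0.0495). The level filter, the trended spread and the test without repeated values called 498, 178 and 228 genes, against 157 in the main test. Without any other single array Fosb missed the threshold (adjusted p up to 0.332, limma). The values were lower in all 3 fusions for 6 of the 10 genes, these 4 among them, against 12.8% of all genes. Between numbers 3 and 2 none of the 10 passed, with 0.00502% of all genes, and at an unadjusted p under 0.05 the count was 2 (Jun and Jund) against 6.89% of all genes. The comparisons of numbers 2 and 3 with number 1 share the number 1 arrays and are not independent of each other.

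**Figure D3:**
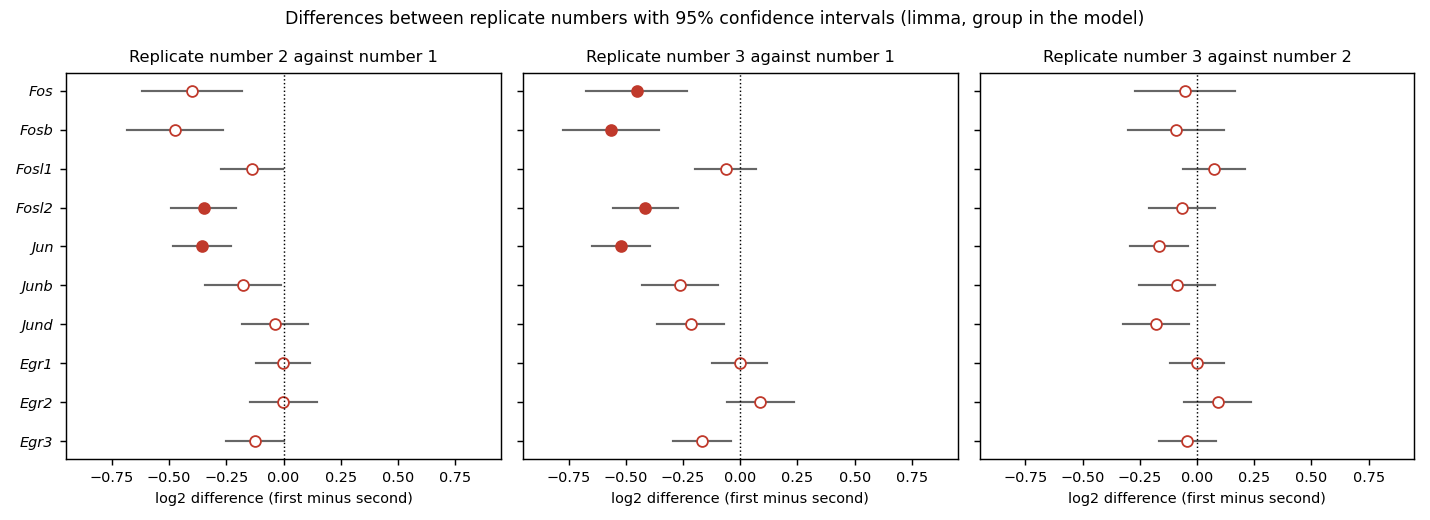
Fitted log2 difference between replicate numbers (horizontal axis, first minus second) for the 10 genes (vertical axis), with 95% confidence intervals from limma; filled points passed at an adjusted p under 0.05. Fos, Fosb, Fosl2 and Jun are filled for number 3 against 1, Fosl2 and Jun for number 2 against 1, and none for number 3 against 2.

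Single arrays bear on these calls. For number 3 against number 1, Jun passed without each array in turn (adjusted p up to 0.0225, limma). Without BCR-RET replicate 1 it was the only one of the 10 to pass: Fosl2, Fosb and Fos had adjusted p of 0.0584, 0.0636 and 0.131 (limma). Fos also missed the threshold without BCR-RET replicate 3 (adjusted p = 0.0802, limma), FGFR1OP-RET replicate 1 (0.0743) and FGFR1OP-RET replicate 3 (0.0816). For number 2 against number 1, Jun passed only without FGFR1OP-RET replicate 2 or replicate 3 and reached an adjusted p of 0.228 without BCR-RET replicate 1, while Fosl2 missed the threshold without any 1 of the 9 arrays (adjusted p 0.0557 to 0.277, limma). With every probe set in the fit and the adjustment, Fosl2 and Jun were the 2 that passed for number 3 against number 1. None passed for number 2 against number 1.

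The promoters of the 4 genes that changed with the number are shown because those genes moved together and are known to be switched on from short elements near the start of transcription. RefSeq promoter windows on GRCm38.p6 were matched for 7 of the 10 genes: Fos, Fosb, Fosl2, Jun, Junb, Jund and Egr2. The windows below hold the 250 bases before the start, 5′ to 3′ on the gene's strand, at chr12:85473640-85473889 (plus strand) for Fos, chr7:19310046-19310295 (minus strand) for Fosb, chr5:32136222-32136471 (plus strand) for Fosl2 and chr4:95052223-95052472 (minus strand) for Jun. Capitals mark the motif matches described after them.
Fos: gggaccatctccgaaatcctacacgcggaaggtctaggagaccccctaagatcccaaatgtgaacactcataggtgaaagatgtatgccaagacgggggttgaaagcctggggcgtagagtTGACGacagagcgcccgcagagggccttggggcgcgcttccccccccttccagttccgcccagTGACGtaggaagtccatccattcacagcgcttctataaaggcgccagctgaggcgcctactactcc
Fosb: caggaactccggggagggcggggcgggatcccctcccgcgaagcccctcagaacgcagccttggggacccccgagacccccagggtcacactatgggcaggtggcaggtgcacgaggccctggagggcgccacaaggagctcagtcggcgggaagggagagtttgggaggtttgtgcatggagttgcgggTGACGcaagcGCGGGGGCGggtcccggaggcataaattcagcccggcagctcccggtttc
Fosl2: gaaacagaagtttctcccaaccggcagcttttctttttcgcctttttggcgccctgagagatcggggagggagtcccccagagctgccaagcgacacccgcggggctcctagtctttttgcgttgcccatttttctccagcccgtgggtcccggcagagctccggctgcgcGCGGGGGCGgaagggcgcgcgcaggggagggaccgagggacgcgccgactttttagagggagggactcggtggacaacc
Jun: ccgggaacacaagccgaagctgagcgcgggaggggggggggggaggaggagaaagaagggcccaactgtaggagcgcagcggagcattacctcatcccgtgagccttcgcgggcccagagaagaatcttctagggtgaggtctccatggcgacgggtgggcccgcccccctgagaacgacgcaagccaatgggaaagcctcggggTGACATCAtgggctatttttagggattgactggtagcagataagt

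Fos had the core TGACG of the cAMP response element at 129 and 66 bases before the start, and Fosb had it at 60 bases. This core was in 17.8% of 32851 windows of the same length, counting both strands, and also in Junb and Egr2. Fosb and Fosl2 each had GCGGGGGCG, a form of the Egr site GCGNGGGCG that 4.7% of windows held, at 50 and 79 bases before the start. Jun had TGACATCA, the site through which c-Jun is known to act on its own gene, at 45 bases before the start, and 2.93% of windows held it. The full element TGACGTCA, which contains the core, and the AP-1 site TGANTCA were found in none of the 7 genes, against 1.55% and 6.75% of windows. Within these 250 bases the CArG box, the SRF site, was found in Egr2 alone of the 7, and in 1.47% of all windows. Sites of any motif further from the start were not searched, and Egr1, Egr3 and Fosl1 had no window. A lack of such sites was therefore not shown. A match is a run of letters and not a shown binding site, and no single motif was in all 4 of the genes.

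**Figure D4:**
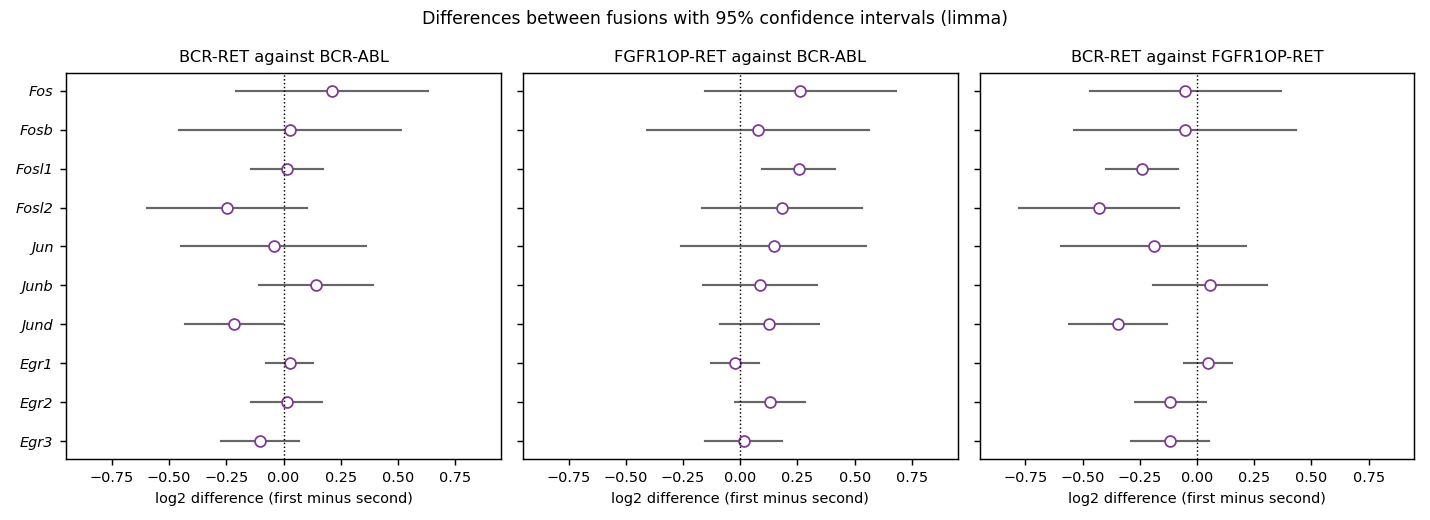
Fitted log2 difference between fusions (horizontal axis, first minus second) for the 10 genes (vertical axis), with 95% confidence intervals from limma; points would be filled at an adjusted p under 0.05. All points are open, and the intervals for Fosl1, Fosl2 and Jund in BCR-RET against FGFR1OP-RET lie below 0. So does that for Jund in BCR-RET against BCR-ABL, just, while that for Fosl1 in FGFR1OP-RET against BCR-ABL lies above 0.

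The signs of the differences between fusions were counted, though none of the 10 passed. Of the 10 genes, 9 had a difference above 0 for FGFR1OP-RET against BCR-ABL (median 0.13, against 0.00 over all genes, of which 50.8% were above 0). Only Egr1, at -0.02, was below. Without FGFR1OP-RET array 1 the count was 6 and the median 0.016, with Egr3, Jun and Junb below 0 and Egr1 at 0. Without BCR-ABL array 1, 2 or 3 or FGFR1OP-RET array 3 the median was 0.24, 0.087, 0.062 or 0.20. For BCR-RET against BCR-ABL 6 of 10 were above 0 (median 0.01, against 0.03), and for BCR-RET against FGFR1OP-RET 2 of 10 were (median -0.12, against 0.03, with 60.5% of all genes above 0). For BCR-RET against BCR-ABL the count ran from 2 to 7 and the median from -0.10 (without BCR-RET array 1) to 0.058 (without BCR-ABL array 1) when each array was left out, and the median was also below 0 without BCR-ABL array 2 (-0.046) or 3 (-0.051). For BCR-RET against FGFR1OP-RET they ran from 1 to 4 and from -0.28 to -0.070, the ends of the median being without BCR-RET array 1 and without FGFR1OP-RET array 1. These comparisons share arrays, so the counts are not independent. Ranges of the fusions did not overlap for 1 gene (Jund, lower) in BCR-RET against BCR-ABL, where 5.9% of all genes were lower without overlap. They did not overlap for 1 (Fosl1, higher) in FGFR1OP-RET against BCR-ABL, against 6.94% higher, and for 2 (Fosl1 and Jund, lower) in BCR-RET against FGFR1OP-RET, against 6.49% lower.

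The width of the intervals differed from gene to gene. For Jun the 95% interval of BCR-RET minus BCR-ABL ran from -0.45 to 0.36 and for Fosb from -0.46 to 0.51. For Egr1 it ran from -0.08 to 0.13. With 1 value repeated on 7 of the 9 Egr1 arrays, that narrow interval was not shown to be higher precision. Without the 3 number 1 arrays, an alternative chosen after seeing the data, none of the 10 passed in any fusion comparison.

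Other genes of the same response were read from lists of immediate early genes (33 of 34 measured), AP-1 partners (12 of 13), Egr relatives and corepressors (4 of 4) and upstream kinases and factors (21 of 29). In the fusion comparisons 1 immediate early gene rose for BCR-RET against BCR-ABL, 1 rose for FGFR1OP-RET against BCR-ABL and 1 upstream gene fell for BCR-RET against FGFR1OP-RET, and none of the AP-1 partners or Egr relatives passed, where 0.587%, 1.02% and 1.33% of all genes passed. With the number as a block, 1 higher and 3 lower immediate early genes passed for BCR-RET against BCR-ABL, where 362 genes did. For FGFR1OP-RET against BCR-ABL the block gave 3 higher and 1 lower, with 1 upstream gene higher, where 576 genes passed. For BCR-RET against FGFR1OP-RET it gave 2 higher and 4 lower, with 3 upstream genes lower, where 1135 genes passed. In these comparisons with FGFR1OP-RET the numbers were not shown to pair. The immediate early list had medians of 0.04, 0.10 and -0.08 in the 3 comparisons.

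Gadd45b, a stress-induced regulator of JNK and p38 signalling, read 9.50, 9.57 and 9.63 in BCR-ABL cells, 9.97, 10.18 and 10.32 with BCR-RET and 9.76, 9.90 and 9.69 with FGFR1OP-RET. BCR-RET exceeded BCR-ABL by 0.59 (SE 0.09, adjusted p = 0.0241, limma), and the 3 fusions did not overlap. The adjusted p rose to 0.112, 0.124 and 0.0811 (limma) when BCR-ABL array 1, 2 or 3 was left out, and to 0.0990 and 0.0763 when BCR-RET array 2 or 3 was. Zfp36, which encodes a protein that speeds the decay of cytokine and immediate early messages, read 8.24, 8.21 and 7.92 in BCR-ABL cells and 8.67, 8.51 and 8.65 in FGFR1OP-RET cells, a difference of 0.49 (SE 0.09, adjusted p = 0.0320, limma). That call ended without any 1 of the 9 arrays (adjusted p 0.0509 to 0.0981, limma).

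Srf, the factor that binds the CArG box, was the upstream gene. It read 10.72, 10.62 and 10.61 with BCR-ABL, 10.73, 10.62 and 10.55 with BCR-RET and 10.88, 11.04 and 11.01 with FGFR1OP-RET, whose arrays lay above all others. BCR-RET minus FGFR1OP-RET was -0.35 (SE 0.07, adjusted p = 0.0439, limma), while FGFR1OP-RET exceeded BCR-ABL by 0.32 without passing (adjusted p = 0.0614, limma). For number 3 against number 1 its fitted difference was -0.05. Number 3 read below number 1 with BCR-ABL and BCR-RET, as for Jun, and above it with FGFR1OP-RET. The adjusted p rose to 0.0619, 0.0907 and 0.0773 (limma) when BCR-ABL array 1, 2 or 3 was left out, to 0.139 and 0.158 when BCR-RET array 2 or 3 was, and to 0.137 and 0.0849 when FGFR1OP-RET array 2 or 3 was.

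By number, 8 of the 33 immediate early genes were lower and 2 higher on number 3 than on number 1, where 3.18% and 6.67% of all genes passed. The list median was -0.06. The 3 with the lowest adjusted p, named after their values were seen, were Ier5 (-0.39, adjusted p = 0.00641, limma), Ier3 (-0.42, adjusted p = 0.00973, limma) and the antiproliferative gene Btg2 (-0.55, adjusted p = 0.0125, limma). Btg2 read 9.12, 9.11 and 8.85 in BCR-ABL cells, 9.48, 9.11 and 8.92 with BCR-RET and 9.79, 9.16 and 8.98 with FGFR1OP-RET, highest on array 1 in each. Ier5 passed without each array in turn, Ier3 missed without FGFR1OP-RET replicate 3 (adjusted p = 0.0517, limma), and Btg2 missed without BCR-RET replicate 1 (0.0851), BCR-RET replicate 3 (0.0550) and FGFR1OP-RET replicate 3 (0.0720). The count of 8 lower became 5 without BCR-ABL replicate 1, 3 without BCR-RET replicate 1, 2 without BCR-RET replicate 3, 3 without FGFR1OP-RET replicate 1 and 2 without FGFR1OP-RET replicate 3. It was 1 with every probe set tested. The higher genes were Plk3 (0.26) and Klf6 (0.28), a count that ran from 0 to 2 when each array was left out and was 0 with every probe set tested.

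In the other lists Mafk, a small Maf protein, was higher (0.32, adjusted p = 0.0129, limma) and its relative Maff, also counted among the immediate early genes, lower (-0.28, adjusted p = 0.0277, limma). Nab1, a corepressor that binds Egr proteins, was higher (0.46, adjusted p = 0.0271, limma). Of the upstream genes Mef2a was higher (0.24), and Creb1 (-0.26) and Map2k2 (-0.24), a kinase of the ERK pathway, were lower. None of these 6 passed with every probe set tested. All 6 also missed the threshold without BCR-RET array 1 (adjusted p = 0.0934, 0.0804, 0.169, 0.183, 0.0910 and 0.220 in the order named, limma), and, leaving out each of the 9 arrays, without 3, 5, 6, 7, 5 and 7 of them. For number 2 against number 1, Ier5 (-0.33) and Maff (-0.36) passed, both lower. Ier5 missed without any 1 of the 9 arrays (adjusted p 0.0599 to 0.239, limma), Maff without any but FGFR1OP-RET array 3 (up to 0.227), and both with median-centred arrays (0.0620 and 0.0544) and with every probe set (0.176 and 0.178). No gene of the lists passed for number 3 against number 2. These genes too were named after their values were seen.

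Across the 9 arrays, Fosb and Fosl2 had the largest SDs of the 10, 0.29 and 0.27, and their nearest patterns were sought among 1670 named genes with an SD of at least 0.2. For Fosb the closest were Prss42 (r = 0.958), Sirt4 (0.945), Ahdc1 (0.939), Nfil3 (0.939) and Tmod4 (0.929). For Fosl2 they were Itga5 (0.982), Kmt2d (0.971), Sh2b2 (0.968), Mcts2 (0.966) and Thoc2l (0.965). These are the highest of many correlations over 9 arrays that share groups and numbers, given as a description of likeness.

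Markers of the line were high on all arrays (Ptprc 11.43 to 11.87, Il3ra 10.24 to 10.60, Csf2rb 11.92 to 12.89), while Kit read 7.29 to 7.40, below the median level of all genes, 8.19. The T cell marker Cd3e read 7.62 to 7.97 and the B cell marker Ms4a1 5.61 to 5.66. The macrophage markers Lyz2 (10.10 to 11.98), Cd68 (9.95 to 10.43) and Adgre1 (9.23 to 9.85) read above that median. Csf1r and Mrc1 read below it, and Cd14 on both sides. Of the fibroblast markers Col1a1 (8.84 to 9.19), Col1a2 (8.35 to 8.62) and Col3a1 (8.50 to 8.63) read above it. Dcn and Pdgfrb read below. Between fusions 1 of 6 monocyte and macrophage markers passed, Cd14, 1.06 higher in FGFR1OP-RET than in BCR-ABL cells (adjusted p = 0.0146, limma) and -1.21 for BCR-RET minus FGFR1OP-RET (adjusted p = 0.00775, limma), and none passed for BCR-RET against BCR-ABL. Markers of the line passed too: Csf2rb (0.72 and 0.69) and Csf2rb2 (0.90 and 0.56) were higher with BCR-RET and FGFR1OP-RET than with BCR-ABL, and Ptprc (-0.36) and Myb (-0.32) were lower with BCR-RET than with FGFR1OP-RET. The part of these markers in the values of Gadd45b, Zfp36, Srf and Fosl1 was not tested. Detection calls were not used, so a low reading is not shown to be background. Between numbers 3 and 1, Il3ra (-0.23, adjusted p = 0.0465, limma) and the macrophage marker Adgre1 (0.39, adjusted p = 0.0262, limma) passed, and none of the 4 T cell, 2 B cell or 5 fibroblast markers did. The mean log2 level of 6 monocyte and macrophage markers was 8.51 to 8.75 on number 1 arrays. It was 8.48 to 9.11 on number 2 arrays and 8.49 to 8.75 on number 3 arrays. The part of these markers in the differences between numbers was not tested. Over all probe sets, arrays of the same number in different fusions correlated at 0.992 to 0.995, and arrays that differed in both at 0.989 to 0.996.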

How the data were processed

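RNA of 9 samples of sorted BaF3 cells was extracted with Trizol and hybridised to 1 array each. The deposited values are on the log2 scale, 1 per probe set and array, made by the authors with RMA (background correction, quantile normalization, robust probe summary) in Expression Console (Affymetrix), as the submitters' processing notes say. The software version, annotation and build used there: not given in the sources used here. RMA makes array distributions alike, so a change of most transcripts 1 way would not be seen, and array medians were 8.01 to 8.04. Of 35557 probe sets, 21789 had 1 symbol in the platform annotation, 1621 several and 12147 none; those with 1 were used, keeping the highest 9-array mean per gene, which left 19938 genes.

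limma 3.58.1 in R 4.3.3 was fitted on all 9 arrays with a mean per fusion, and for numbers with number plus fusion. P-values were Benjamini-Hochberg adjusted over all genes, with 0.05 as the threshold; ± is the SD. The steps were tested on simulated data. The 10 genes and the lists were chosen with earlier results of these data known. Named were all 10 genes, list genes past the threshold in a fusion comparison, and the 5 nearest patterns of the 2 genes with the largest SD. List genes that passed only between numbers, and markers, were named outside this rule, after their values were seen. As a check of pairing, same-numbered BCR-RET and BCR-ABL arrays deviated from their means together (r over genes, not independent, 0.617, 0.155 and 0.367 for numbers 1, 2 and 3). All exceed 0.1, the limit set for a pairing. The main tests of the fusions nevertheless used no block, which was fitted only as an alternative. Such a pairing would come from the data, since the labels do not explain the number. Yet number 2 of each of these fusions correlated more with number 3 of the other (0.222 both ways), so a pairing of number 2 was not shown. Alternatives covered the probe sets tested, the probe set rule, a level filter, the spread model, centring, the block, the arrays in the fit and leaving out each array. Array number limits the precision.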

Additional observations from a re-analysis of the deposited data

How the results depend on the processing

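With every probe set tested, the counts fell from 117 to 73 (BCR-RET against BCR-ABL), from 203 to 121 (FGFR1OP-RET against BCR-ABL), from 265 to 101 (BCR-RET against FGFR1OP-RET), from 157 to 0 (number 2 against 1, with 0 in place of 2 of the 10), from 1964 to 575 (number 3 against 1, with 2 in place of 4) and from 1 to 0 (number 3 against 2). Fitting the 6 arrays of a comparison gave 56, 94 and 34, and 2 arrays per fusion without number 1, chosen after seeing the data, gave 28, 62 and 67 in the same order. With genes above the median level, 498 passed for number 2 against 1 and 2 for number 3 against 2.

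The replicate block gave 362, 576 and 1135 of the 19938 genes. For the pairs with FGFR1OP-RET the samples share only a number (r of number 2 was -0.128 with BCR-ABL and -0.152 with BCR-RET). There the block gave 0 of the 10 against BCR-ABL, and 3 for BCR-RET against FGFR1OP-RET: Fosl2 (adjusted p = 0.00620, limma), Jund (0.0166) and Fosl1 (just under the threshold). It changed no other call of the 10.

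Leaving out each array gave 28 to 114, 70 to 185 and 86 to 194 genes between fusions, with 0 of the 10, and 17 to 281, 284 to 2549 and 0 to 5 between numbers (2 against 1, 3 against 1, 3 against 2), with 0 to 2, 1 to 4 and 0 of the 10. Uncalled values that crossed 0 then were, for BCR-RET against BCR-ABL, Egr2 (-0.050 to 0.056), Fos (-0.0033 to 0.38), Fosb (-0.21 to 0.23), Fosl1 (-0.037 to 0.070) and Jun (-0.21 to 0.081). For FGFR1OP-RET against BCR-ABL they were Egr3 (-0.022 to 0.081), Fosb (-0.054 to 0.28), Jun (-0.0029 to 0.29) and Junb (-0.056 to 0.19), and for BCR-RET against FGFR1OP-RET Fos (-0.27 to 0.12), Fosb (-0.29 to 0.083) and Junb (-0.049 to 0.20). Between numbers they were Egr1 (-0.040 to 0.035), Egr2 (-0.050 to 0.071) and Jund (-0.095 to 0.029) for 2 against 1, Egr1 (-0.040 to 0.035) for 3 against 1, and Egr3 (-0.068 to 0.0080) and Fos (-0.16 to 0.077) for 3 against 2.

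Without number 1, Fosb turned to -0.0086 (BCR-RET against BCR-ABL) and Junb to -0.012 (FGFR1OP-RET against BCR-ABL). With arrays centred on their medians, Egr1 and Egr2 turned to 0.0089 and 0.011 for number 2 against 1 and Egr1 to 0.0093 for number 3 against 1. Testing every probe set alters both the adjustment and the fitted spread, and fitting fewer arrays leaves fewer degrees of freedom. The cause of the changes was not tested. No depth applies to arrays, whose number limits the precision.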
